A study of Mus musculus with 11 samples.

Results

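The genes described here encode proteins of the acute phase reaction, which rise in plasma when tissue is injured or infected: the serum amyloids Saa1, Saa2 and Saa3, haptoglobin (Hp), haemopexin (Hpx), the lipopolysaccharide-binding protein Lbp and its partner Cd14, the orosomucoids Orm1 and Orm2, and the long pentraxin Ptx3. They were taken as every array probe whose gene symbol in the platform annotation was one of these names, which gave 15 probes for 10 genes, out of 19057 genes with a probe of 1 symbol. All 15 probes passed the filter on dim probes, and 12865 genes were tested.

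RNA of whole kidney and whole lung from adult BALB/C mice, all labelled female, had been hybridised to 11 Illumina bead arrays. Healthy kidney (n = 3) and healthy lung (n = 3) came from healthy mice, and the titles give the same 3 mice for both organs. Fibrotic kidney (n = 2) came from mice with unilateral ureter obstruction (UUO), in which 1 ureter is closed and the kidney behind it scars. Fibrotic lung (n = 3) came from mice given bleomycin, which damages the epithelium of the lung, into the trachea. The time after surgery or bleomycin is not given in the sources used here, and no sham-operated or vehicle-treated mice were analysed here, so operation and fibrosis cannot be told apart. Replicate numbers follow the order of the labels and only name an array.

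In the acute phase, interleukin 6 acting through STAT3, and interleukin 1 acting through NF-kB and C/EBP factors, switch on these genes in hepatocytes, and the liver is the main source of most of the plasma proteins. Several are also made in injured tissue itself: Saa3 in mice is made mainly outside the liver, by macrophages, adipocytes and epithelium, Ptx3 by macrophages, fibroblasts and endothelium, and haptoglobin by lung epithelium and neutrophils. CD14 is a surface receptor of monocytes and macrophages that injured tubule cells can also make.

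Levels are log2 bead intensities after background correction and normalisation between arrays. A level of about 4.5 is what a probe with no signal above the negative controls reads, and "not above background" means a detection p-value of at least 0.05. Raw median intensity was 95.2 to 125.1 per array, and between 9591 and 11462 tested genes were detected on an array. The number of arrays limits the precision, the 2 fibrotic kidneys most of all. In whole tissue, fewer cells of a type and less RNA per cell cannot be told apart.

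Several arrays stood apart in transcripts of other tissues, and all of them enter the comparisons below. Healthy lung replicate 3 was above background for 23 of 23 hepatocyte genes outside the acute phase, against 7 of 23 in each of the other healthy lungs, and their summed intensity was 166160, against 1754 and 5430. This array alone among the lungs was above background for the liver gene Crp (log2 level 11.1). Fibrotic kidney replicate 2 had a summed intensity of 38613 over 17 neutrophil markers (13 above background), against 3127 (6 above background) in replicate 1 and 561 to 735 in the healthy kidneys. Both fibrotic kidneys held lung transcripts that were not above background in healthy kidneys: Scgb1a1, a club cell secretory protein, was at 12.5 and 11.4, and Sftpc, a surfactant protein, at 9.2 and 7.8. Fibrotic lung replicate 1 was above background for 6 of 11 kidney tubule markers outside the proximal tubule, against 3 in replicates 2 and 3. Their summed intensity there, 1355, lay within the range of the healthy lungs (1163 to 1443). Although every mouse was labelled female, the Y-linked Eif2s3y was above background in 8 of the 11 arrays, among them all healthy ones, and was not in either fibrotic kidney or in fibrotic lung replicate 3. In the kidney comparison, this sex-linked difference and fibrosis cannot be told apart.

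Promoters were found for 6 of the 10 genes in RefSeq's table for mouse build GRCm38.p6, as windows of 300 bases, 250 before and 50 after the transcription start. Those of the 3 serum amyloids, which lie in 1 cluster on chromosome 7 with Saa4 between Saa3 and Saa1, are printed here. They show how alike the promoters of Saa1 and Saa2 are. Those of Orm2 and Ptx3 are printed too. Both genes were above background in every fibrotic lung, as was Hpx, whose window is not printed. Capitals mark matches to the C/EBP motif TTGCNNAA on either strand, to the TATA box TATAAA (in Orm2 only) and to the NF-kB motif (in Ptx3 only). The windows are Saa1 at chr7:46742931-46743230 (minus strand), Saa2 at chr7:46751583-46751882 (plus), Saa3 at chr7:46715627-46715926 (minus), Orm2 at chr4:63362199-63362498 (plus) and Ptx3 at chr3:66219637-66219936 (plus), each read 5′ to 3′ along its gene's strand.
Saa1: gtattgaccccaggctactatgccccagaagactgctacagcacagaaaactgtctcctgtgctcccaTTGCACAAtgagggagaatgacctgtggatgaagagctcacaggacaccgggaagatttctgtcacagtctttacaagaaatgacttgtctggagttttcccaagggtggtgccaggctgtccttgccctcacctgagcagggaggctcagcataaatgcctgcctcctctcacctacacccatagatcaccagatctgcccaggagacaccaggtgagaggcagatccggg
Saa2: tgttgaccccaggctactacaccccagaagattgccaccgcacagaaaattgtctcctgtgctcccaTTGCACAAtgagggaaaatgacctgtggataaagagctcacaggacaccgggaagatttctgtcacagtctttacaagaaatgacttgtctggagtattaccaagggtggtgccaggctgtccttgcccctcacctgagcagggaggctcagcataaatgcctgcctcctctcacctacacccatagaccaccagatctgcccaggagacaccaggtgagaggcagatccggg
Saa3: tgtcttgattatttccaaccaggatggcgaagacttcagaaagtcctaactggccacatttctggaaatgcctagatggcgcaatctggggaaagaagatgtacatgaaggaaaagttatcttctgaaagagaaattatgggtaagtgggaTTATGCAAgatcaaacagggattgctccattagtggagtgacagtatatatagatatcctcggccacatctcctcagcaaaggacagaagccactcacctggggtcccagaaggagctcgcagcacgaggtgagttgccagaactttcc
Orm2: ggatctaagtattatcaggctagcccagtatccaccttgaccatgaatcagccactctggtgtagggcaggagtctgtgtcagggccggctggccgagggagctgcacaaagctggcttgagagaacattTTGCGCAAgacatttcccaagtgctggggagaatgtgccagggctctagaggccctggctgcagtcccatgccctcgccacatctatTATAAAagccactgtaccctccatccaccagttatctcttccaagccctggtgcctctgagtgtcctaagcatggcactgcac
Ptx3: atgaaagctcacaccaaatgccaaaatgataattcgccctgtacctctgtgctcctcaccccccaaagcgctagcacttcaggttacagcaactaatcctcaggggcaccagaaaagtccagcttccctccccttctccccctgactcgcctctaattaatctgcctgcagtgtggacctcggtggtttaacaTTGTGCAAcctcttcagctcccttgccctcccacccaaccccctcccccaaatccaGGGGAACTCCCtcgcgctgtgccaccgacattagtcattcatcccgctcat

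The windows of Saa1 and Saa2, divergent genes with starts 8.85 kb apart, were identical at 287 of 299 aligned bases (96.0%), whereas Saa1 and Saa3 shared 59.8%. Each of the 6 promoters, that of Hpx included (chr7:105600067-105600366, minus strand), held 1 C/EBP match, against 10.8% of 32544 mouse promoters of the same length. The first base of the match lay 182 bases before the start in Saa1, 183 in Saa2, 99 in Saa3, 200 in Hpx, 120 in Orm2 and 57 in Ptx3. Orm2 also held a TATA box match 33 bases before the start, as 13.6% of promoters did. The Ptx3 window held 2 NF-kB matches that overlap each other at the start site, a motif found in 4.53% of promoters. No window held the STAT motif TTCNNNGAA, which 8.33% of promoters held. These are matches of letters, and binding was not measured.

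The first comparison asked which of these genes changed in the obstructed kidney. Cd14 and Lbp, the pair that captures lipopolysaccharide, rose strongly, and Saa2 rose by a small amount close to background. Saa1, Saa3, Hp, Orm2 and Ptx3 were far higher in fibrotic kidney replicate 2 than in any healthy kidney but not in replicate 1, and did not pass the test. Hpx and Orm1 were not higher on average. Thus 3 of 10 genes rose and 0 fell, where 23.2% of all genes tested rose and 15.6% fell (limma adjusted p under 0.05), and the median log2 change was 1.59, against 0.10 over all genes tested. That median depended on the array: it was 3.27 without fibrotic kidney replicate 1 and 0.045 without replicate 2. Each of these fits leaves 1 fibrotic kidney, and the medians over all genes were 0.07 and 0.10. The arrays of the groups did not overlap for 4 of the 10 genes, all higher in fibrotic kidney, as was so for 35.4% of all genes tested. Of all calls, 59.8% were rises, against 77.1% with a common median in place of quantile normalisation and 33% on the authors' processed intensities.

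**Figure D1:**
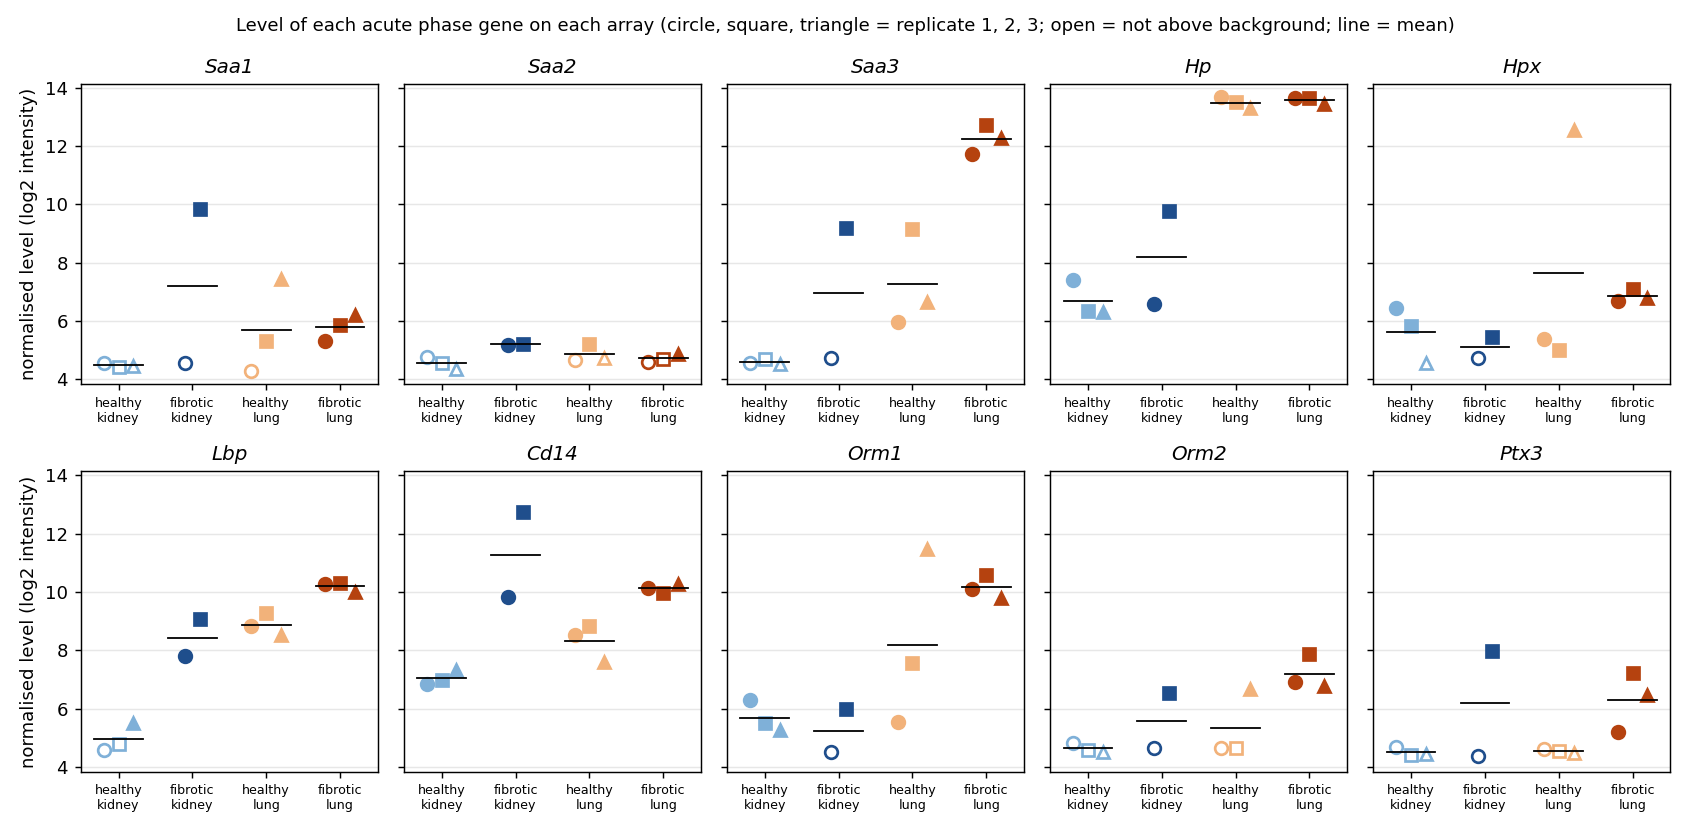
Log2 level of each of the 10 genes on every array, 1 panel per gene, with healthy and fibrotic kidney and healthy and fibrotic lung along the x axis. Filled points were above background and open points were not. The single high points are fibrotic kidney replicate 2 (Saa1 at 9.86, Saa3 at 9.21, Ptx3 at 7.96) and healthy lung replicate 3 (Hpx at 12.56).

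Among the genes of lipopolysaccharide capture, Lbp is the plasma protein that takes lipopolysaccharide from bacterial membranes, and Cd14 is the receptor to which Lbp hands it. Lbp was at log2 levels of 4.59, 4.78 and 5.49 in the healthy kidneys, above background only in the last, and reached 7.80 and 9.06 after obstruction. Both fibrotic kidneys lay above every healthy one. The rise was 3.47 ± 0.38 log2 units (SE), or 11.1-fold (limma adjusted p = 8.93e-05). Leaving out fibrotic kidney replicate 1 gave 17.2-fold, and leaving out replicate 2 gave 7.18-fold. Lbp was brighter in lung, with group means of 8.87 in healthy and 10.19 in fibrotic lungs. Both fibrotic kidneys held the lung transcripts Scgb1a1 and Sftpc. The part of lung RNA in these Lbp values, and so in the comparison of the organs below, was not tested.

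Cd14 was above background in every healthy kidney, at 6.84, 6.97 and 7.31, and read 9.82 and 12.74 after obstruction. Here too the groups did not overlap, although the 2 fibrotic kidneys lay 2.92 log2 units apart. The rise was 4.24 ± 0.67 log2 units, or 18.9-fold (limma adjusted p = 0.000785), and it was 51.9-fold when fibrotic kidney replicate 1 was left out and 6.86-fold when replicate 2 was. Macrophage and monocyte markers moved with Lbp and Cd14: 16 of 21 rose and 1 fell in fibrotic kidneys, and their summed intensity was 3596 to 4457 without and 24685 to 28050 with obstruction. It was slightly lower in replicate 2 than in replicate 1, whereas Cd14 was higher there; the part of these cells in the Cd14 rise was not tested.

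The serum amyloids are apolipoproteins of high-density lipoprotein particles, and Saa1 and Saa2 are the major liver forms. The Saa1 probe with the highest signal read 4.58, 4.42 and 4.47 in the healthy kidneys, 4.57 in the first obstructed kidney and 9.86 in the second. Only the last was above background. The kidney change of 2.72 ± 1.27 log2 units did not pass the test (limma adjusted p = 0.115), and the measured level was at least 3.72-fold higher as a group mean. Without fibrotic kidney replicate 1, which leaves 1 fibrotic kidney, the value was at least 23.2-fold. Without replicate 2 neither group was above background.

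A second Saa1 probe also read highest in fibrotic kidney replicate 2, with a smaller gap, at 4.51 and 5.81 in the obstructed kidneys, of which the second alone was above background. Over the 11 arrays the 2 Saa1 probes correlated at r = 0.568, the weakest among genes with several probes. In the lungs they did not rank the arrays alike: healthy lung replicate 3 was highest by the first probe (7.45) and not above background by the second (4.81). RefSeq lists Saa2 among the synonyms of Saa1. Only the promoters of the 2 genes were compared here, not their transcripts or the probe sequences. Which transcript each probe takes up was therefore not tested.

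Saa2 read 4.78, 4.56 and 4.35 in healthy kidney, none above background, and 5.19 and 5.20 in fibrotic kidney, both above it. Its groups did not overlap, and the rise of 0.64 ± 0.20 log2 units passed the threshold (limma adjusted p = 0.0276). The lowest detected signals of the healthy kidney arrays were no lower than this level, so no fold can be given. The call was lost without either fibrotic kidney or without healthy kidney replicate 2 or 3 (limma adjusted p = 0.0609 to 0.095). It was also lost with no background correction (0.0689), with an offset of 50 (0.0654) and on the authors' processed intensities (0.372).

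Saa3, the form that mice make mainly outside the liver, read 4.57, 4.72 and 4.54 in the healthy kidneys and 4.75 in fibrotic kidney replicate 1, all not above background, and 9.21 in replicate 2. The kidney change of 2.37 ± 1.15 log2 units did not pass the test (limma adjusted p = 0.13). As a bound it was at least 3.15-fold, and at least 14.8-fold without fibrotic kidney replicate 1, which leaves 1 fibrotic kidney.

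Haptoglobin binds free haemoglobin and haemopexin binds free haem. By its brightest probe, Hp was above background in all kidneys. It read 7.40, 6.35 and 6.33 in the healthy ones, and 6.60 and 9.79 in the fibrotic ones. Fibrotic kidney replicate 1 lay within the healthy range, and replicate 2 lay 3.19 log2 units above replicate 1. The change of 1.50 ± 0.71 log2 units, or 2.84-fold, did not pass the test (limma adjusted p = 0.118). Without fibrotic kidney replicate 1, which leaves 1 fibrotic kidney, it was 8.58-fold, and without replicate 2 the level was 1.07-fold lower. The 3 Hp probes followed each other closely over the arrays (r = 0.994 to 0.999), which include the wide gap between kidney and lung. Within the kidney, the other 2 probes were each above background in only 1 healthy and 1 fibrotic kidney. Their kidney changes were 0.70 ± 0.61 and 1.06 ± 0.63 log2 units, also with no call (limma adjusted p = 0.397 and 0.213). Hp is bright in lung, and the lung transcripts Scgb1a1 and Sftpc were above background in both fibrotic kidneys (Scgb1a1 at 12.5 and 11.4, Sftpc at 9.2 and 7.8); the part of lung RNA in the Hp values was not tested.

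The Hpx level was 6.47, 5.82 and 4.55 in healthy kidney, and 4.74 and 5.45 in fibrotic kidney, with healthy kidney replicate 3 and fibrotic kidney replicate 1 not above background. By this probe, the brighter of 2, the groups overlapped, and the change was -0.52 ± 1.77 log2 units (limma adjusted p = 0.853). The second Hpx probe was above background in every healthy kidney (5.31 to 6.06) and in neither fibrotic kidney (4.59 and 4.81). By that probe the groups did not overlap and the level was at least 1.43-fold lower in fibrotic kidney. Its change was not called either (-0.92 ± 1.32 log2 units, limma adjusted p = 0.634). The SE of both Hpx probes comes from a spread shared by all groups, so it does not measure the kidneys alone. By the second probe the SD was 0.39 in healthy kidney, 0.15 in fibrotic kidney and 3.31 in healthy lung. By the brighter probe the SDs were 0.97, 0.50 and 4.25. Of the 23 hepatocyte genes outside the acute phase, 0 rose and 2 fell. Their summed intensity was 17191 to 23007 in fibrotic and 43131 to 59167 in healthy kidneys (15 to 19 of 23 above background, many being shared with kidney tubules).

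The orosomucoids are plasma carriers of lipophilic molecules that also damp inflammation. Orm1 read 6.29, 5.50 and 5.25 in the healthy kidneys, 4.50 in fibrotic kidney replicate 1, not above background, and 5.97 in replicate 2. Its groups overlapped, with a change of -0.44 ± 1.29 log2 units (limma adjusted p = 0.825). That SE, too, comes from the shared spread: the SD of Orm1 was 0.55 in healthy kidney, 1.04 in fibrotic kidney and 3.02 in healthy lung. Orm2 was above background in fibrotic kidney replicate 2 alone (6.53), against 4.65 in replicate 1 and 4.51 to 4.81 in the healthy kidneys (0.95 ± 0.66 log2 units, limma adjusted p = 0.29).

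Ptx3 binds complement C1q and microbial surfaces, and is released locally by cells that meet interleukin 1 or Toll-like receptor ligands. In the kidney, the Ptx3 level was 4.68, 4.40 and 4.44 in the healthy group, 4.39 in fibrotic replicate 1 and 7.96 in fibrotic replicate 2. It was above background in the last array alone. The group change of 1.67 ± 0.84 log2 units did not pass (limma adjusted p = 0.144), with a bound of at least 1.81-fold. Without fibrotic kidney replicate 1, which leaves 1 fibrotic kidney, the bound was at least 6.25-fold. The second Ptx3 probe gave the same picture.

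**Figure D2:**
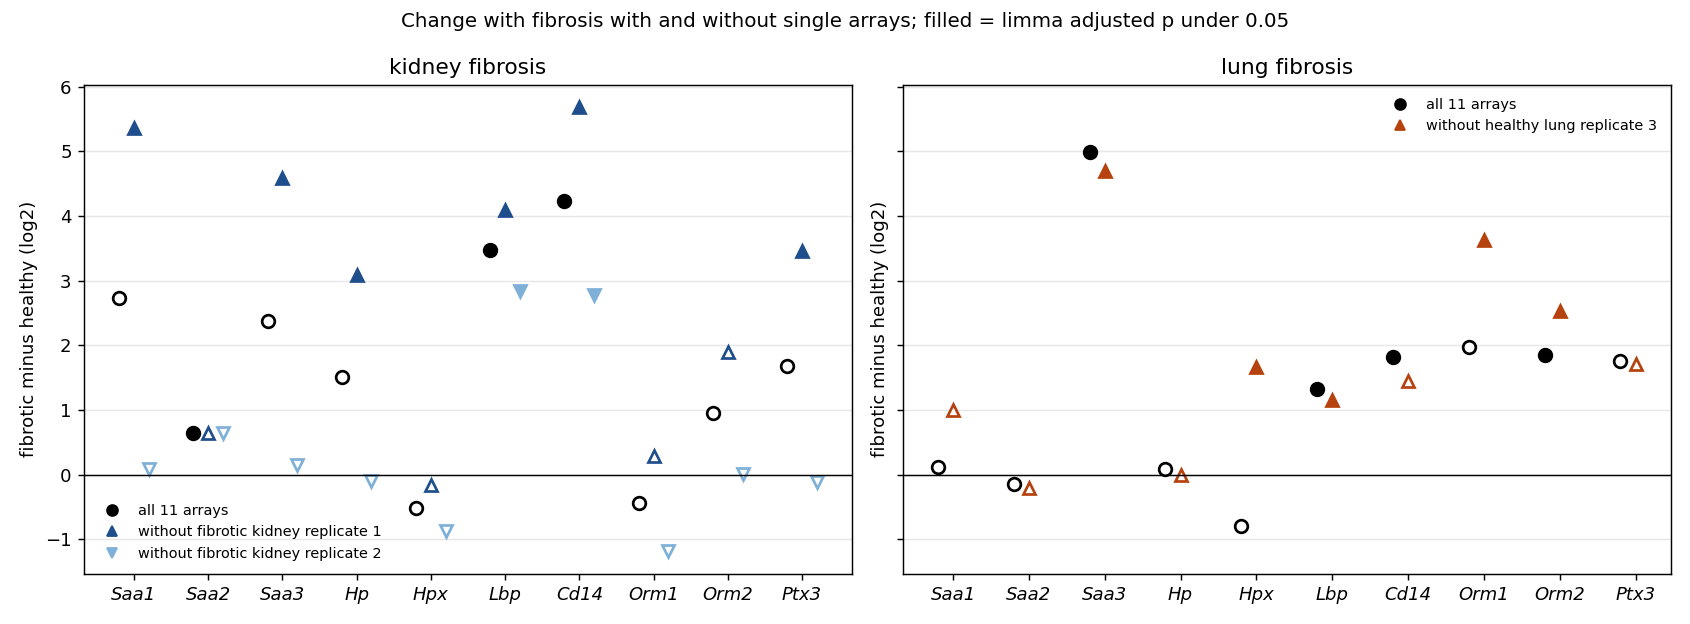
Log2 change of each gene in kidney fibrosis with all arrays and without each fibrotic kidney in turn, and in lung fibrosis with all arrays and without healthy lung replicate 3. Filled points passed the limma threshold. Each fit without a fibrotic kidney leaves 1 array in that group. Without fibrotic kidney replicate 1, Saa1 moved from 2.72 to 5.36 and Saa3 from 2.37 to 4.59, and without healthy lung replicate 3, Orm1 moved from 1.97 to 3.63 and Hpx from -0.79 to 1.66.

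The 2 obstructed kidneys differed from each other more in these genes than in most. All 10 genes read higher in replicate 2 than in replicate 1, and the median gap was 2.40 log2 units, against -0.01 over all genes tested. A gap of at least 2 log2 units, a limit chosen after the values were seen, was found for 5 of the 10 (Saa1 at 5.29, Saa3 at 4.46, Ptx3 at 3.58, Hp at 3.19 and Cd14 at 2.92) and for 0.956% of all genes tested. Leaving out either array leaves 1 fibrotic kidney with no spread of its own. A call in the kidney then rests on that array and on the spread of the other groups. Other transcripts differed between the same 2 arrays: Il6, the main inducer of the liver response, was at 4.5 and 7.8, S100a8 at 6.8 and 12.2, S100a9 at 6.3 and 11.3 (both neutrophil granule proteins), and the fibrinogen chain Fga at 9.1 and 13.4. Of the 17 neutrophil markers, 3 rose and 0 fell in fibrotic kidneys, with 6 above background in replicate 1 and 13 in replicate 2. The part of neutrophils in the values of replicate 2 was not tested.

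The second comparison asked the same of the bleomycin-injured lung. Saa3 rose most, and Lbp, Cd14 and Orm2 rose with it, while the mean level of Hp, already bright in healthy lung, differed between the groups by 0.09 log2 units. Ptx3 became detectable in all 3 fibrotic lungs without passing the test. In total 4 of 10 genes rose and 0 fell, where 18.9% of all genes tested rose and 18.9% fell, and the median log2 change was 1.54, against -0.03 over all genes. For 5 of the 10 genes every fibrotic lung read higher than every healthy one, as was so for 26.1% of all genes tested. Rises were 50.1% of all calls, 75.9% with a common median and 89.2% on the authors' processed intensities.

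Saa3 was above background in each healthy lung, at 5.96, 9.16 and 6.66, and reached 11.74, 12.71 and 12.27 in the fibrotic lungs. Even the lowest fibrotic lung lay well above the highest healthy one. The rise was 4.98 ± 1.03 log2 units, or 31.6-fold (limma adjusted p = 0.00394). Because the healthy lungs differed among themselves, it was 61.0-fold without healthy lung replicate 2 and 20.1-fold without healthy lung replicate 1. Neutrophil markers moved in part with it: their summed intensity was 6229, 23962 and 3733 in the healthy lungs, highest in the array with the most Saa3, and 27503 to 53039 in the fibrotic lungs, where 8 of 17 rose and 0 fell. Of 21 macrophage markers, 13 rose and 0 fell. Of 13 adipocyte markers, 0 rose and 5 fell, among them the hormone adiponectin (Adipoq), at 7.7, 10.5 and 10.3 in healthy and 4.9, 5.2 and 7.4 in fibrotic lungs. The part of these cell types in the Saa3 rise was not tested.

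Saa1 in the lungs was at 4.30, 5.33 and 7.45 in the healthy group and at 5.32, 5.88 and 6.22 in the fibrotic group. The groups overlapped fully, and the change was 0.11 ± 1.13 log2 units (limma adjusted p = 0.95). Saa2 stayed near background, at 4.66, 5.21 and 4.75 against 4.58, 4.70 and 4.89, with 1 array of each group above it (-0.15 ± 0.18 log2 units, limma adjusted p = 0.539). Of the serum amyloids, then, Saa3 passed the test in the lung and Saa1 and Saa2 did not.

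For lipopolysaccharide capture, Lbp was at 8.82, 9.28 and 8.52 in the healthy lungs and at 10.26, 10.32 and 10.00 in the fibrotic lungs. The groups did not overlap, and the rise was 1.32 ± 0.34 log2 units, or 2.49-fold (limma adjusted p = 0.0118). Cd14 went from 8.53, 8.84 and 7.58 to 10.14, 9.97 and 10.27, again with no overlap. That rise was 1.81 ± 0.60 log2 units, or 3.51-fold (limma adjusted p = 0.0358), and the call was lost when healthy lung replicate 1 or 3, any fibrotic lung or the filter on dim probes was left out, with adjusted p up to 0.0987.

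Orm2 was above background in 1 healthy lung, replicate 3, at 6.66, with 4.64 and 4.65 in the others, and in all fibrotic lungs, at 6.90, 7.86 and 6.76. The lowest fibrotic value barely exceeded the highest healthy one. The rise was 1.85 ± 0.59 log2 units, or 3.61-fold (limma adjusted p = 0.0319), and the call was lost without healthy lung replicate 1 or 2, fibrotic lung replicate 1 or 2, or the filter on dim probes. Without healthy lung replicate 3, the array with the hepatocyte transcripts, no healthy lung was above background and Orm2 was at least 4.58-fold higher (limma adjusted p = 0.00292). Orm1 was at 5.53, 7.56 and 11.47 in the healthy lungs and at 10.11, 10.58 and 9.79 in the fibrotic ones. The highest value of all was that of healthy lung replicate 3, so the groups overlapped and the change of 1.97 ± 1.15 log2 units did not pass (limma adjusted p = 0.209). Without that array Orm1 was 12.3-fold higher in fibrotic lungs (3.63 log2 units, limma adjusted p = 0.0014).

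Hpx depended on the same array for its sign. It was at 5.39, 5.01 and 12.56 in the healthy lungs, and at 6.68, 7.10 and 6.81 in the fibrotic lungs. With all arrays the change was -0.79 ± 1.59 log2 units (limma adjusted p = 0.73), and without healthy lung replicate 3 it was 1.66, or 3.17-fold higher (limma adjusted p = 0.0181). The second Hpx probe ordered the lung arrays in the same way, with 10.66 in healthy lung replicate 3, but not the kidney arrays. Over all 11 arrays, that one included, the 2 probes correlated at r = 0.967. Healthy lung replicate 3 was at least 2 log2 units above both other healthy lungs for 4 of the 10 genes (Hpx, Orm1, Orm2 and Saa1) and for 1.58% of all genes tested, a limit chosen after the values were seen. The part of liver RNA in these values was not tested.

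Hp was at 13.67, 13.50 and 13.29 in the healthy lungs and at 13.65, 13.65 and 13.45 in the fibrotic lungs. The groups overlapped, and the change was 0.09 ± 0.63 log2 units (limma adjusted p = 0.924). Its other probes gave 0.25 ± 0.54 and 0.42 ± 0.56 log2 units (SE), also with no call. Ptx3 was not above background in any healthy lung (4.46 to 4.63) and was so in every fibrotic lung, at 5.19, 7.22 and 6.48. Those groups did not overlap, and the level was at least 2.50-fold higher, but the change of 1.75 ± 0.75 log2 units did not pass (limma adjusted p = 0.0936). It passed on the authors' processed intensities (2.77, limma adjusted p = 0.0124), where the median change of all genes was 0.61. The second Ptx3 probe gave 1.10 ± 0.58 log2 units, with no call (limma adjusted p = 0.166).

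**Figure D3:**
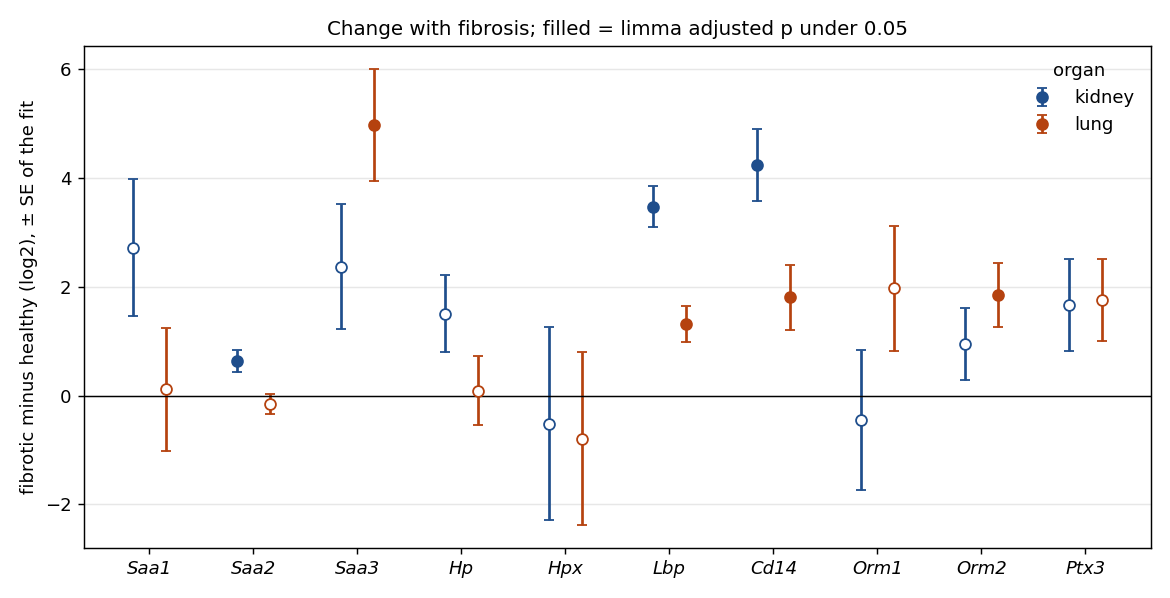
Log2 change with its SE (vertical bars) of the 10 genes in kidney fibrosis and in lung fibrosis. Filled points passed the limma threshold over all genes tested. Lbp and Cd14 are filled in both organs, Saa2 in the kidney, and Saa3 and Orm2 in the lung.

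Whether the changes differed between the organs was tested as the kidney change minus the lung change. Lbp rose by 2.16 ± 0.51 log2 units more in the kidney than in the lung (limma adjusted p = 0.00724). Saa2, near background throughout, differed by 0.79 ± 0.27 log2 units (limma adjusted p = 0.0378). These 2 of 10 genes were called, both with the larger change in the kidney, where 23.9% of all genes tested were called in that direction and 16.2% in the other. Lbp differed in its starting level, 4.96 ± 0.47 (SD, n = 3) in healthy kidneys and 8.87 ± 0.38 (SD, n = 3) in healthy lungs, and ended at 8.43 ± 0.89 (SD, n = 2) and 10.19 ± 0.17 (SD, n = 3). Cd14 changed by 2.43 ± 0.90 log2 units more in the kidney without passing (limma adjusted p = 0.0531). It passed with a common median (2.54, limma adjusted p = 0.0352) or without healthy lung replicate 3 (2.81). Without fibrotic kidney replicate 1, which leaves 1 fibrotic kidney, the difference was 3.87. For Saa3 the difference was -2.61 ± 1.55 log2 units (limma adjusted p = 0.206). It passed with no background correction (-2.86, limma adjusted p = 0.0399). Without fibrotic kidney replicate 2, which leaves 1 fibrotic kidney, the Saa3 difference was -4.84.

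Between the healthy organs, 3 of the 10 genes were lower in kidney and 0 higher, where 33.5% of all genes tested were lower and 28.2% higher. For 4 of the 10 (Hp, Lbp, Saa3 and Cd14) every healthy kidney read below every healthy lung, as was so for 37.8% of all genes tested. Hp was 111-fold lower in kidney (-6.80 ± 0.63 log2 units, limma adjusted p = 6.12e-06), with no overlap of the arrays. Lbp was 15.1-fold lower (-3.92 ± 0.34 log2 units, limma adjusted p = 3.59e-06). Saa3, not above background in healthy kidney, was at least 3.83-fold lower there (limma adjusted p = 0.045), a call that was lost without any 1 of the healthy kidneys or fibrotic lungs or without healthy lung replicate 2, and also with no background correction, an offset of 50, no filter on dim probes or the authors' processed intensities (adjusted p up to 0.17). The order of the 4 groups differed from gene to gene. Hp and Lbp ran from fibrotic lung through healthy lung and fibrotic kidney to healthy kidney. For Hp both lung groups overlapped and lay apart from the kidneys, and for Lbp healthy lung and fibrotic kidney overlapped. Saa3 ran in the same order, with healthy lung and fibrotic kidney overlapping, while Cd14 was highest in fibrotic kidney, which overlapped with fibrotic lung.

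The 10 genes did not follow a single course over the arrays. Pearson correlations between them over the 11 arrays, given as a description across arrays that fall into 4 groups, ran from -0.183 (Hpx with Cd14) to 0.855 (Hp with Lbp). Saa3 followed Lbp (r = 0.848) and Orm2 (r = 0.830), Ptx3 followed Cd14 (r = 0.805), and Saa1 followed Saa3 only weakly (r = 0.408). Among all genes tested, those most like Saa3 were Asprv1 (r = 0.981), Prrx1 (r = 0.974) and Tnfsf14 (r = 0.971). Lbp was most like Cd44, Gli3 and Cavin3 (r = 0.994 to 0.995), and Hp most like Gdnf, Fgf7 and Nfe2 (r = 0.987 to 0.993). Hpx was most like the liver transcripts Serpind1 (r = 0.991) and Hao1 (r = 0.968). Hpx was at 12.56 in healthy lung replicate 3, the array with the hepatocyte transcripts, and at most 7.10 on every other array. That 1 array therefore weighs heavily in its correlations. Likewise Ptx3 was most like Plscr1 (r = 0.965) and Il11 (r = 0.937), and Cd14 most like Vars (r = 0.981).

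Other acute phase genes, from a list chosen with earlier results of these data known, moved in both directions in the lung. Of 32 tested, 7 rose and 0 fell in the kidney (median log2 change 0.17), and 7 rose and 4 fell in the lung (median -0.64). Over all genes tested, 23.2% rose and 15.6% fell in the kidney, and 18.9% rose and 18.9% fell in the lung. Healthy lung replicate 3 had 31 of the 32 above background and a median log2 level of 10.47, against 6.00 and 6.32 in the other healthy lungs and 7.36 to 7.88 in the fibrotic lungs. Lcn2, a siderophore-binding protein that the neutrophil list also holds, rose by 7.14 ± 0.84 log2 units in the kidney and by 3.51 ± 0.75 in the lung (limma adjusted p = 0.000138 and 0.00466). Serpina3n, a protease inhibitor, rose by 4.52 ± 0.66 and 3.23 ± 0.59, and the copper ferroxidase Cp by 3.62 ± 0.38 and 1.20 ± 0.34. Itih4, an inter-alpha-inhibitor heavy chain, fell by 3.46 ± 0.60 log2 units in the lung (limma adjusted p = 0.00148). Crp and Saa4 read above background in the lungs only in healthy lung replicate 3. Of 11 negative acute phase genes, which fall in the liver response, 1 rose (transferrin, Trf) and 0 fell in the kidney, and 0 rose and 1 fell in the lung (Rbp4, the retinol carrier, at least 4.89-fold lower). Their median log2 level was nevertheless 6.79 to 7.17 in healthy and 4.76 to 4.98 in fibrotic kidneys. Healthy lung replicate 3 had a summed intensity of 81781 over them, against 2594 and 2331 in the other healthy lungs. The groups share 1 estimate of the spread, so this array weighs on the calls in both organs.

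Of 33 cytokines, receptors and transcription factors that drive acute phase genes, 17 rose and 0 fell in the kidney (median 1.37), and 12 rose and 3 fell in the lung (median 0.19). The shares over all genes tested were 23.2% and 15.6% in the kidney, and 18.9% and 18.9% in the lung. Socs3, the feedback inhibitor of interleukin 6 signalling, rose by 5.34 ± 0.39 log2 units in the kidney and 2.38 ± 0.35 in the lung (limma adjusted p = 9.96e-06 and 0.00058), and the difference between organs passed the test (limma adjusted p = 0.00151). Osmr, the oncostatin M receptor, rose by 3.40 ± 0.30 and 1.30 ± 0.27. The interleukin 6 receptor Il6ra rose by 1.63 ± 0.26 in the kidney and fell by 0.75 ± 0.23 in the lung, the latter a call that was lost without any 1 lung array, with a common median, on the authors' processed intensities and as the mean of its probes. Cebpd and Cebpb, C/EBP factors, rose in the kidney by 1.63 ± 0.18 and 1.71 ± 0.37, and in the lung changed by 0.19 ± 0.16 and -0.15 ± 0.33 with no call. Il6 itself did not pass in either organ (limma adjusted p = 0.108 in the kidney and 0.335 in the lung).

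Partners of the genes were called as follows, where 23.2% of all genes tested rose and 15.6% fell in the kidney, and 18.9% rose and 18.9% fell in the lung. Beyond Lbp and Cd14, 8 of 20 genes of lipopolysaccharide recognition rose and 1 fell in the kidney, and 9 rose and 0 fell in the lung. Tlr4, the signalling receptor, rose by 1.67 ± 0.30 log2 units in the kidney and 1.05 ± 0.27 in the lung, and its co-receptor Ly96 by 1.43 ± 0.29 and 1.38 ± 0.26. Of 11 receptors and carriers of serum amyloids, 5 rose and 1 fell in the kidney and 4 rose and 1 fell in the lung. Fpr2, a receptor of serum amyloid A on phagocytes, was at least 10.5-fold higher in fibrotic kidney, and Pltp, a lipid transfer protein of high-density lipoprotein, fell by 1.46 ± 0.28 in the lung. In haemoglobin and haem clearance, 5 of 17 rose and 5 fell in the kidney, and 6 rose and 3 fell in the lung. Hmox1, which breaks down haem, rose by 3.48 ± 0.42 in the lung and Cd163, the receptor of haptoglobin-haemoglobin complexes in humans, by 1.87 ± 0.43, while the erythroid transcript Hba-a1 fell by 5.14 ± 0.30. Of 14 partners of Ptx3 and related pentraxins, 5 rose and 0 fell in the kidney and 9 rose and 0 fell in the lung, with C1qc, a chain of the C1q that Ptx3 binds, up by 2.96 ± 0.25 and 2.76 ± 0.22.

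**Figure D4:**
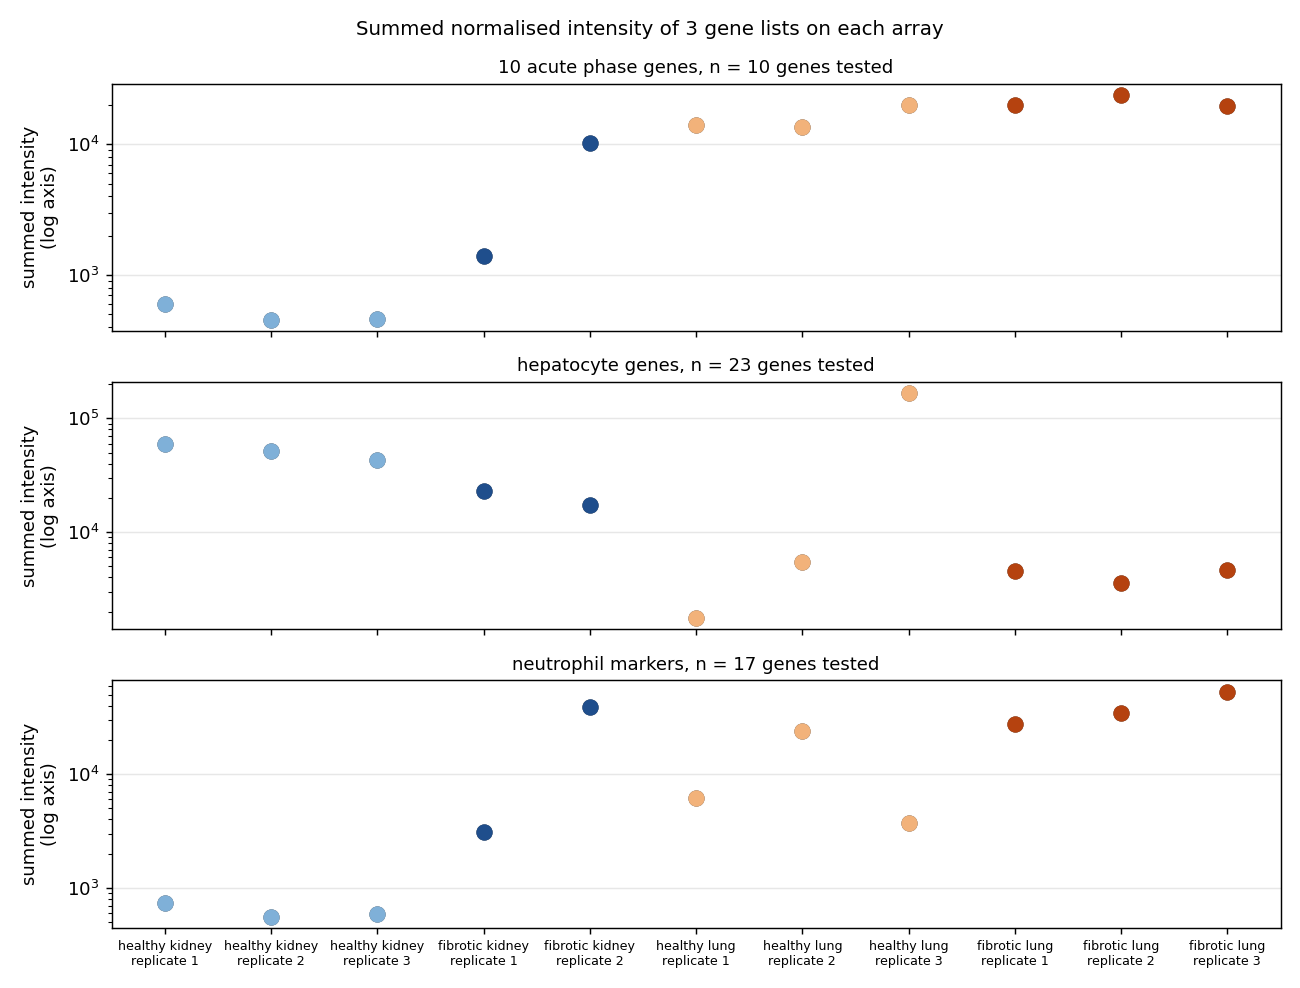
Summed intensity on each array, on a log axis, of the 10 acute phase genes, of 23 hepatocyte genes outside the acute phase and of 17 neutrophil markers. Hepatocyte genes peak in healthy lung replicate 3 (166160), and the acute phase and neutrophil sums of fibrotic kidney replicate 2 (10263 and 38613) lie above those of replicate 1 (1406 and 3127).

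Summed over the 10 genes, intensity was 453 to 603 in healthy kidney, 1406 and 10263 in fibrotic kidney, 13577 to 19865 in the healthy lungs and 19644 to 23957 in the fibrotic lungs. Such sums add intensities that are not logged, so the brightest gene weighs most. That was Hp in every lung (13.29 to 13.67) and Cd14 in fibrotic kidney replicate 2 (12.74). The 19865 was that of healthy lung replicate 3, where Hpx was at 12.56 and Orm1 at 11.47. The number above background was 4 of 10 in each healthy kidney and in fibrotic kidney replicate 1, and 10 of 10 in fibrotic kidney replicate 2. It was 6 to 8 of 10 in the healthy lungs and 9 or 10 of 10 in the fibrotic lungs.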

How the data were processed

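RNA of 11 organ samples was measured on Illumina bead arrays, 1 array each. RNA extracted with Trizol was turned into biotinylated cRNA, per the labels' protocols, and the submitters' processing notes name GenomeStudio 5.0. For 45281 probes the deposited table holds raw intensity with its detection p-value, and the authors' detection p-value sets a probe against the array's negative controls. A second deposited table holds the authors' processed intensities, which on each array were a straight line of the raw ones to within a residual of 0.11, so scale, direction and absence of centring are known. Their medians were 10.6 to 28.8. Slides and scan dates were not used, since the sources used here do not give them. Genes were named from the platform annotation: 34885 probes had 1 symbol, 18 several and 10378 none, and genes were named from the first kind only. Of the symbols, 34807 probes' were found in RefSeq and 0 were updated.

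The raw intensities were background corrected and quantile normalised with neqc (offset 16, negative controls inferred from detection p-values) in limma 3.58.1 under R 4.3.3, which puts levels on the log2 scale. Probes with detection p under 0.05 on at least 2 arrays were kept, and the probe that was brightest on average over all arrays stood for its gene. One model with a coefficient per group was fitted with lmFit and eBayes, so that the groups share 1 estimate of the spread (7 residual degrees of freedom). It gave 4 contrasts, with Benjamini-Hochberg adjusted p-values over 12865 genes within each and a threshold of 0.05. Changes carry the SE of the fit, and p-values are two-sided. The script was tested on simulated data. Where a group had no array with the probe above background, the fold is a bound, "at least": in that group each array's value was raised to the array's lowest detected signal if it lay below it, and the means of log2 values were then compared. Each array of a group came from its own mouse, per the labels. The healthy organs share mice by their titles, although the descriptions number the arrays' mice apart. Kidney and lung of the same mouse deviated from their group means at r = 0.014, -0.070 and -0.113.

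The genes, the pathway and cell type lists, and the tests were chosen with earlier results of these data known. The text names all 10 genes and, of each list, at most the 3 genes with the smallest p per organ, plus inducers, partners and tissue markers set with the lists. Alternatives were other background, normalisation, filter, offset and probe rules, the authors' processed intensities, the 2 compared groups alone, mouse as a block, and leaving out each array.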

Additional observations from a re-analysis of the deposited data

Results flagged for a closer look

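For 2 of the 10 genes the change in the obstructed kidney differed from the change in the bleomycin-injured lung by the test of the difference. Lbp changed by 2.16 log2 units more in the kidney (limma adjusted p = 0.00724). The difference did not pass without background correction (0.71, limma adjusted p = 0.145) or on the authors' processed intensities (1.26, limma adjusted p = 0.0751). Saa2 changed by 0.79 log2 units more in the kidney (limma adjusted p = 0.0378), at levels close to background on all arrays. That difference did not pass with no background correction, a common median, an offset of 50 or the authors' processed intensities (limma adjusted p = 0.0635 to 0.725), or when any 1 of 7 arrays was left out (0.0654 to 0.0852).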

How the results depend on the processing

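With all arrays, 3 genes were called in the kidney, 4 in the lung, 2 for the difference of changes and 3 between the healthy organs. Of all genes tested, 38.8%, 37.8%, 40% and 61.6% were called, in the same order. Lbp and Cd14 in the kidney, and Lbp and Saa3 in the lung, kept their direction and their call under every alternative run. The difference count was 1 with no background correction (Saa3, with Lbp and Saa2 lost), 1 with an offset of 50 and 0 on the authors' processed intensities, and the lung count was 2 with no filter on dim probes. The shares of all genes tested called under these settings were 40.2%, 40.6% and 51.4% for the difference and 24.7% in the lung. The causes were not tested. Leaving out 1 array gave 2 to 6 calls in the kidney (6 without fibrotic kidney replicate 1), 2 to 5 in the lung, 1 to 5 for the difference (5 without healthy lung replicate 3) and 2 to 4 between the healthy organs. Leaving out 1 array other than a fibrotic kidney, 32.1% to 40.3% of all genes tested were called in the kidney and 30.1% to 36.4% in the lung. The shares were 34.8% to 41.3% for the difference and 55.6% to 62.2% between the healthy organs. Without fibrotic kidney replicate 1 or 2, the fit assumes that the remaining fibrotic kidney varies like the other groups. With mouse as a replicate block the counts were 3, 4, 2 and 3, and no call of the 10 genes changed; the correlation within a mouse was -0.025.

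The sign of the log2 change turned in these cases, none of them called with all arrays, and the causes were not tested. On the authors' processed intensities it was 0.091 for Hpx and 0.57 for Saa2 in the lung, and 0.32 for Orm2, 1.60 for Ptx3 and 0.10 for Saa1 between the healthy organs. For Saa1 in the lung it was -0.00018 with no background correction, -0.053 with an offset of 50 and -0.14 as the mean of its probes. Leaving out 1 array, the lung change ran from -0.59 to 0.99 for Saa1, -0.26 to 0.017 for Saa2, -2.12 to 1.66 for Hpx and -0.0046 to 0.18 for Hp. The kidney change ran from -1.19 to 0.29 for Orm1, -0.094 to 3.09 for Hp and -0.12 to 3.45 for Ptx3. The difference of changes ran from -0.040 to 5.24 for Saa1 and -0.19 to 3.00 for Hp. Among the other genes named with no call, Cebpb in the lung was 0.24 with a common median and 0.42 on the authors' processed intensities, and leaving out 1 array the kidney change ran from -0.035 to 3.27 for Il6 and -0.084 to 4.18 for Fga, and the lung change from -3.86 to 0.59 for Fga. Between the healthy organs the range was -0.13 to 0.011 for Ptx3 and -3.37 to 0.41 for Hpx. The authors' processed intensities moved the median change of all genes from 0.10 to -0.27 in the kidney and from -0.03 to 0.61 in the lung, and a common median moved it to 0.27 and 0.20. For a gene not above background in a group, the array gives only a bound on its change.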

Other observations

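Fibrinogen chains are acute phase proteins of clotting. Fga was at log2 levels of 9.2, 9.3 and 9.1 in the healthy kidneys and at 9.1 and 13.4 in the fibrotic kidneys. In the healthy lungs it was at 4.5, 4.3 and 13.2, and in the fibrotic lungs at 4.9, 5.3 and 4.8. Fgg was at 6.9, 6.4 and 5.1, then 6.0 and 10.3, then 4.7, 4.7 and 11.5, and then 4.8, 5.1 and 4.7 in the same order of groups. Both chains were highest in fibrotic kidney replicate 2 and healthy lung replicate 3. The brighter Saa1 probe was highest in these arrays too, but the second Saa1 probe was not above background in healthy lung replicate 3 (4.81). Neither chain was called in the kidney or the lung (limma adjusted p = 0.509 and 0.389 for Fga). The liver transcript Apoa1 was high in healthy lung replicate 3 (13.9) and not in fibrotic kidney replicate 2 (4.7).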
